A study of Danio rerio with 26 samples.

Results

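Transcript abundance was compared between the brain and the liver of control zebrafish (Danio rerio, short-fin AB strain), across 29964 of the 57918 Ensembl transcripts listed in the deposited tables. A transcript was kept when it reached 1 TPM in at least 2 of the 9 control libraries, and no other measure was used to choose it. TPM is the abundance of a transcript, corrected for its length, relative to all transcripts of its library. Of the kept transcripts, 12945 reached 1 TPM in 2 or more libraries of both tissues, 14960 did so in the brain alone, 1748 in the liver alone, and 311 passed with 1 library of each tissue. The 2468 transcripts just inside the rule (1 TPM in exactly 2 libraries) had a median mean of 0.589 TPM, and the 3058 just outside it (1 TPM in exactly 1 library) had 0.368 TPM. The transcripts kept held between 99.5% and 99.9% of the TPM of each library.

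The control brain groups held 3 female and 2 male libraries, and the control liver groups 2 female and 2 male libraries. Control fish were handled like the exposed fish, with a daily move to a new tank, but without ethanol. They were kept as 30 fish of 1 sex per tank, and their age is not given in the labels. Some of the breeding pairs set up in the later weeks of the experiment joined control partners of both sexes, so control fish had been bred. Each library holds tissue pooled from fish of its group, and no label says whether replicates are different fish. Every p-value given here therefore speaks only of variation from library to library, and that variation may be technical. Brain and liver libraries of alcohol-exposed fish (9 weeks in 0.5% ethanol; 2 libraries of each sex in each tissue) and of withdrawal fish (2 female and 3 male brains, 2 female and 2 male livers) were used only to see whether the tissue difference of the controls recurred.

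As background, the liver is a secretory organ whose hepatocytes devote much of their messenger RNA to a small set of abundant plasma proteins, and in egg-laying female fish it also makes the precursors of yolk. The brain is a mixture of neurons of many kinds, glia and vascular cells, and it is known for transcribing a large part of the genome. The tables pair no transcript with a gene, and the reference tables used here list no Ensembl transcripts. No gene name, position or sequence is therefore given, lists of marker genes could not be applied, and the tissue labels could not be checked against defining markers. In bulk samples such as these, fewer cells of a type and less RNA per cell cannot be told apart.

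The liver concentrated its transcripts in far fewer kinds than the brain. The number of most abundant transcripts that together held 50% of the TPM was 386, 266 and 396 in the 3 female brains and 213 and 150 in the 2 male brains, against 54 and 40 in the female livers and 51 and 49 in the male livers. Every brain library thus spread its TPM over more transcripts than any liver library (282 ± 108 in brains, n = 5, and 48.5 ± 6.03 in livers, n = 4, SD; two-sided p = 0.0159 by exact permutation, the lowest value possible with these group sizes; Benjamini-Hochberg adjusted p over 5 measures = 0.0198). The share of TPM in the top 100 transcripts of each library was 38.8% ± 4.81 in brains and 63.7% ± 2.14 in livers (SD, n = 5 and 4), and that in the top 1000 was 65.7% ± 4.19 in brains and 91.3% ± 1.19 in livers. Both differences reached the same exact permutation p of 0.0159 (adjusted 0.0198).

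More transcripts reached 1 TPM in the brain. The number at 1 TPM or more was 26759, 26660 and 27088 in female brains and 23580 and 22579 in male brains, against 14640 and 12792 in female livers and 11611 and 12762 in male livers. The tissues did not overlap (25333 ± 2094 in brains, n = 5, and 12951 ± 1253 in livers, n = 4, SD; exact two-sided permutation p = 0.0159, adjusted 0.0198). The very top of the list was more alike: the top 10 transcripts accounted for 21.9% ± 3.75 in brains and 27.4% ± 3.34 in livers (SD, n = 5 and 4), a difference of -5.43 percentage points that did not pass the exact permutation test (p = 0.0635, adjusted 0.0635). That test passed without control female liver replicate 1, where the difference was -6.89 points (exact permutation p = 0.0357). The depth of each library is unknown, because TPM sums to the same total in every library, so a part of depth in the detected numbers was not tested. The gap in these numbers also depended on the bound. At 5 TPM or more the means were 14766 transcripts in brains and 5269 in livers. Above 0 TPM, brain libraries listed 38667 to 40121 transcripts and liver libraries 29794 to 31744. TPM is relative to its library, so the numbers are not independent of the liver's concentration in few transcripts.

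**Figure D1:**
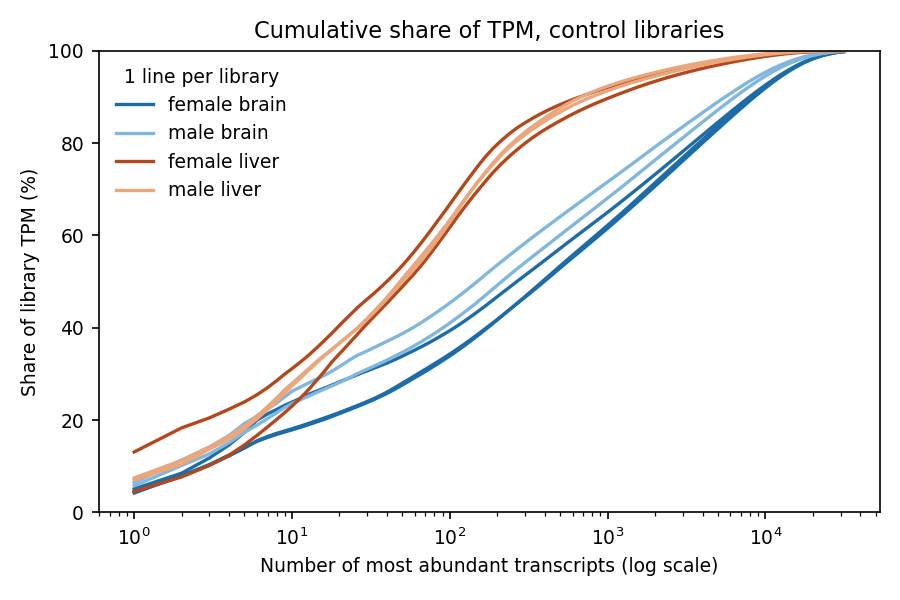
Cumulative share of library TPM (vertical axis, percent) held by the most abundant transcripts (horizontal axis, number of transcripts on a log scale), 1 line for each of the 9 control libraries. The 4 liver lines cross 50% between 40 and 54 transcripts, and the 5 brain lines between 150 and 396.

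How many transcripts counted as higher or lower in the brain depended on how the 2 tissues were put on a common scale. With TPM rescaled by the median ratio over the 19759 transcripts above 0 in all 9 libraries, limma with sex as a covariate called 12781 transcripts higher in the brain (42.7% of those tested) and 7030 lower (23.5%) at a Benjamini-Hochberg adjusted p below 0.05. This rescaling divided brain TPM by 1.68 to 2.38 and liver TPM by 0.347 to 0.521. It takes the typical transcript found in both tissues to be equal in them, which nothing in the data can test. On TPM as deposited, the median of all transcripts was 1.44 log2 units higher in the brain, against 0.30 after the rescaling, and the calls were 22586 higher and 2635 lower. A rescaling over only the 2413 transcripts of 5 TPM or more in all 9 libraries gave 17622 higher and 4675 lower, and quantile normalisation 11549 higher and 7922 lower. The balance also differed by how a transcript had passed the 1 TPM rule. Of the 12781 brain-high calls, 9771 were transcripts that reached it in 2 or more libraries of the brain alone, where 370 were called lower. Among the 12945 that reached it in both tissues, 3010 were called higher in the brain and 5024 lower. Among those of the liver alone, 1562 were called lower and none higher. Transcripts of the brain alone or the liver alone passed the rule through that tissue, so the rule partly fixed the direction of their calls.

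Calls that stood in the same direction under all 4 scalings numbered 10916 transcripts higher in the brain (36.4% of those tested) and 2571 lower (8.58%). Neither number can exceed the smallest count of its direction under any 1 scaling. That was 11549 higher, with quantile normalisation, and 2635 lower, on TPM as deposited. The balance of the 2 numbers therefore depends on the scalings chosen. None of the 12781 transcripts higher after the first rescaling was called lower on TPM as deposited, which was fixed in advance. That rescaling lowered every brain value and raised every liver value, so leaving it out can only move a difference upwards. Of the 7030 transcripts lower after the first rescaling, 2006 were called higher in the brain on TPM as deposited. A transcript steady on the deposited scale shows what this means. It stood at 267, 265 and 241 TPM in female brains and 276 and 268 TPM in male brains, against 213 and 249 TPM in female livers and 254 and 257 TPM in male livers. On the deposited scale it was the least variable of the 226 transcripts with 100 TPM or more in all 9 libraries, yet after the first rescaling it was called lower in the brain by a log2 difference of -2.13 (limma adjusted p = 3.81e-06). Counts of calls below are those after the first rescaling unless the 4 scalings are named.

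The balance of the calls that stood under all 4 scalings changed with abundance. Among the 8218 transcripts with a mean of 5 to 20 TPM over the tissues, 3830 were higher in the brain and 650 lower under all 4 scalings, and among the 3312 of 20 to 100 TPM, 1598 were higher and 451 lower. From 300 TPM upwards the balance turned: of 214 transcripts of 300 to 1000 TPM, 56 were higher in the brain and 80 lower, and of 160 above 1000 TPM, 9 were higher and 72 lower. The 10916 brain-high transcripts held 35.8% to 43.6% of the TPM of brain libraries and 1.35% to 2.13% of that of liver libraries. The 2571 brain-low transcripts held 5.23% to 6.01% of brain TPM and 54.5% to 64.9% of liver TPM. The remainder, called under some scalings or none, held 49.9% to 58.7% of brain TPM and 33.4% to 44.0% of liver TPM. These shares describe the transcripts that the test picked and support nothing further. The abundance classes were cut by the deposited TPM of the same libraries. The turn with abundance is therefore not independent of the liver's concentration in few transcripts.

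**Figure D2:**
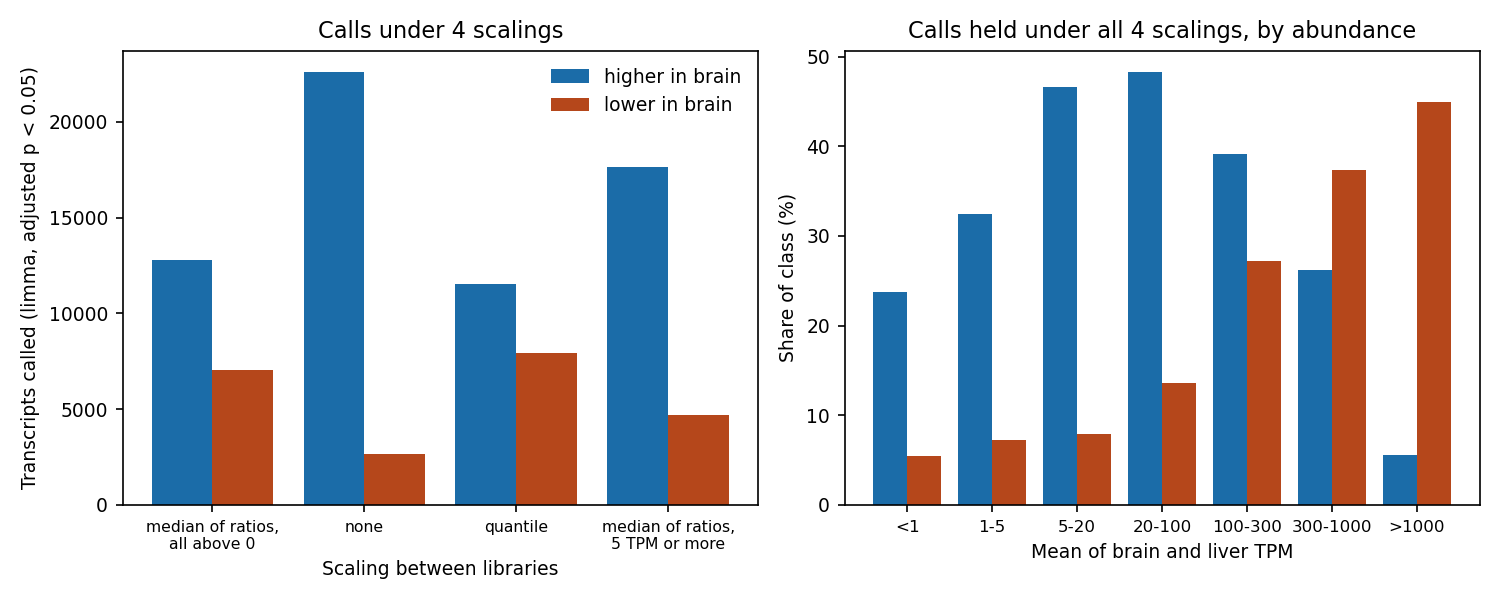
Left, number of transcripts called higher or lower in the brain than in the liver (limma, adjusted p below 0.05) under each of 4 scalings between libraries. Right, share of each abundance class (mean of brain and liver TPM as deposited) that was called in the same direction under all 4 scalings, with brain-high calls at 48.2% of the 20 to 100 TPM class and brain-low calls at 45.0% of the class above 1000 TPM.

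Differences between the tissues were large. After the first rescaling, 7662 called transcripts were at least 2-fold higher in the brain (25.6% of those tested) and 5208 at least 2-fold lower (17.4%). At 16-fold and more the numbers were nearly equal, with 809 higher (2.7%) and 903 lower (3.01%). Beyond 256-fold lay 21 transcripts higher in the brain and 139 lower. These fold counts were made after the first rescaling alone, and their balance depends on it. Without it, the brain-high differences named below were larger and the brain-low ones smaller. For scale, replicate libraries of a group differed by a median of 0.14 to 0.20 log2 units per transcript, and the median size of the tissue difference was 0.87 log2 units.

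The largest brain-high difference belonged to ENSDART00000171617.1. Its level as deposited was 37384, 28363 and 33157 TPM in female brains and 11589 and 13175 TPM in male brains, against 0.19 and 1.03 TPM in female livers and 1.57 and 1.90 TPM in male livers. It was among the most abundant transcripts of the brain and near the floor of the liver table, and female brains were all above male brains. The log2 difference was 11.59 (SE 0.49, limma adjusted p = 1.59e-07) after the first rescaling and 13.35 on TPM as deposited. The second, ENSDART00000007584.7, stood at 3943, 3575 and 3819 TPM in female brains and 2777 and 2298 TPM in male brains, against 0.16 and 0.10 TPM in female livers and 0.09 and 0.08 TPM in male livers. Its log2 difference was 10.27 (SE 0.09, limma adjusted p = 9.92e-10) after the rescaling and 11.47 without it.

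The largest brain-low difference belonged to ENSDART00000056095.5, the most abundant transcript of the liver on average. It stood at 118, 106 and 132 TPM in female brains and 16.2 and 20.8 TPM in male brains, against 24985 and 18936 TPM in female livers and 74618 and 70357 TPM in male livers. Male livers were thus higher than female livers, and female brains higher than male brains. The log2 difference was -11.73 (SE 0.76, limma adjusted p = 2.04e-06) after the rescaling and -9.49 on TPM as deposited. ENSDART00000137734.1 stood at 23.1, 16.3 and 19.0 TPM in female brains and 3.19 and 0.79 TPM in male brains, against 4994 and 3690 TPM in female livers and 5404 and 5410 TPM in male livers. Its log2 difference was -11.24 (SE 0.53, limma adjusted p = 3.05e-07) after the rescaling and -9.19 without it.

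Among the 12 transcripts of largest brain-high difference, deposited levels ran from 428 to 37384 TPM in brain libraries and from 0 to 1.90 TPM in liver libraries, and 3 of the 12 were listed at 0 in every liver. Among the 12 of largest brain-low difference, levels ran from 0.39 to 164 TPM in brain libraries and from 673 to 74618 TPM in liver libraries, and none was listed at 0 in every brain. The brain-low transcripts thus left a measurable level in the other tissue. In 10 of these 12 every female brain was above every male brain, and the reverse order held in none. Among the 12 brain-high transcripts, every female brain was above every male brain in 5, and the reverse held in 3. These orders were not counted over all tested transcripts. Limma on deposited TPM called 9734 of all 29964 tested transcripts higher in female than in male brains and 2115 lower.

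**Figure D3:**
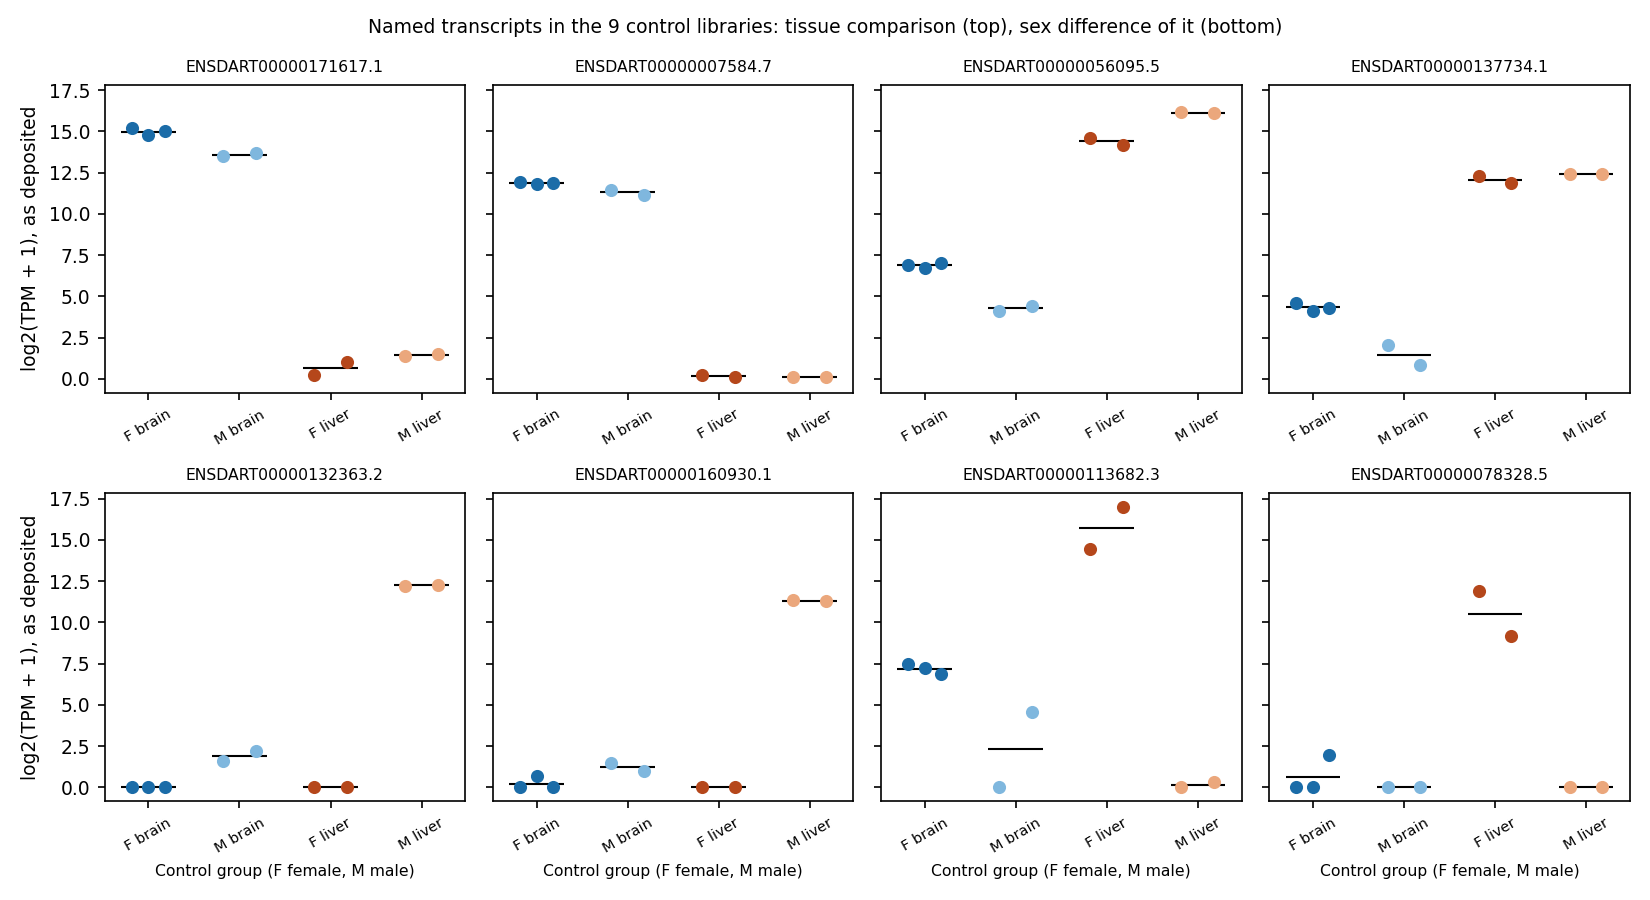
Level of 8 named transcripts in the 9 control libraries, as log2(TPM + 1) on TPM as deposited (vertical axis), by tissue and sex (horizontal axis, F female and M male), 1 point per library with a line at the group mean. The top row shows the largest brain-high and brain-low differences, with brain and liver libraries far apart, and the bottom row shows transcripts whose tissue difference depended on sex, each high in the livers of 1 sex.

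The most abundant transcripts of the 2 tissues were partly the same. Of the 100 highest by mean TPM in each tissue, 44 were shared, and these 44 held 17.5% to 30.4% of brain TPM and 17.2% to 23.9% of liver TPM. Of the 10 highest, 1 was shared: the first in the brain and the ninth in the liver. It stood at 42019, 51009 and 46058 TPM in female brains and 57764 and 65110 TPM in male brains, against 12018 and 8369 TPM in female livers and 17789 and 21613 TPM in male livers. After the first rescaling it did not pass the test between the tissues (log2 difference -0.32, limma adjusted p = 0.35), and on deposited TPM every brain library was above every liver library. Of the 10 highest brain transcripts, 3 were called higher in the brain under all 4 scalings and none lower. Of the 10 highest liver transcripts, 8 were called lower in the brain under all 4 and none higher. Over all tested transcripts, 36.4% were called higher and 8.58% lower under all 4. Each list of 10 was picked by its level in 1 tissue, so the direction of its calls was partly fixed by that choice.

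Transcripts abundant everywhere were a small set with a large part of the RNA. The 226 transcripts with 100 TPM or more in all 9 libraries held 32.5% to 44.6% of brain TPM and 39.7% to 45.8% of liver TPM. Within 2-fold over all 9 libraries on the deposited scale lay 8 of them, and the median ratio of the highest to the lowest library was 4.21. Under all 4 scalings 4 were higher in the brain and 73 lower, against 36.4% higher and 8.58% lower of all tested transcripts. After the first rescaling 4 were called higher and 201 lower, against 42.7% and 23.5% of all tested. The 226 were picked on TPM as deposited. The first rescaling moves every difference downwards, and their median log2 difference after it was -2.99, so the number of 201 depends on that scaling.

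Some transcripts were listed at 0 throughout one tissue. A listed 0 may reflect reads assigned to a near-identical transcript instead, so no fold is given. In all 4 livers 2111 of the tested transcripts (7.05%) were listed at 0 while present in a brain, and these held 1.52% to 2.67% of brain TPM, with a median level of 3.08 TPM. In all 5 brains 177 transcripts (0.591%) were listed at 0 while present in a liver, and these held 0.103% to 0.251% of liver TPM. Means of 100 TPM or more were reached by 17 of the brain-listed and 3 of the liver-listed transcripts. The most abundant brain-listed transcript stood at 2313, 2300 and 2749 TPM in female brains and 1358 and 1390 TPM in male brains. The most abundant liver-listed one stood at 673 and 1064 TPM in male livers and was listed at 0 in both female livers. Counting below 0.1 TPM in place of exactly 0 gave 4683 transcripts for the brain.

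Sex entered the comparison in both tissues. Of the variance over the 29964 transcripts, tissue carried 72.4%, sex 15.7%, the part of sex that depended on tissue 6.80%, and the spread between replicates 5.03%. The first principal component (72.5%) placed brain libraries between -154.9 and -146.6 and liver libraries between 179 and 204.8. The component that followed (18.8%) placed every female library at 23.0 or above and every male library at -48.3 or below, in brains and livers alike. The tissue differences of females and males, which share no library but share the scale, correlated across transcripts with a Pearson r of 0.826 (n = 29964 transcripts, which are not independent replicates).

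Within females limma called 12827 transcripts higher in the brain (42.8% of those tested) and 7660 lower (25.6%), and within males 12310 higher (41.1%) and 7017 lower (23.4%). Both sexes gave the same direction for 14619 transcripts and opposite directions for 899. On TPM as deposited the split was 22638 higher and 2678 lower in females and 20317 higher and 2868 lower in males. The test of the difference itself called 9784 transcripts whose brain-minus-liver difference was not equal in the sexes, 5171 with the larger value in females (17.3%) and 4613 with the larger value in males (15.4%). Without rescaling these were 5232 and 1993. The sex difference was the larger one in the liver for 7565 of the 9784. That order was not counted over all 29964 transcripts, where the median size of the sex difference was 0.549 log2 units in the liver and 0.357 in the brain. A difference between the sexes of at least 16-fold was reached by 311 of the 9784.

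**Figure D4:**
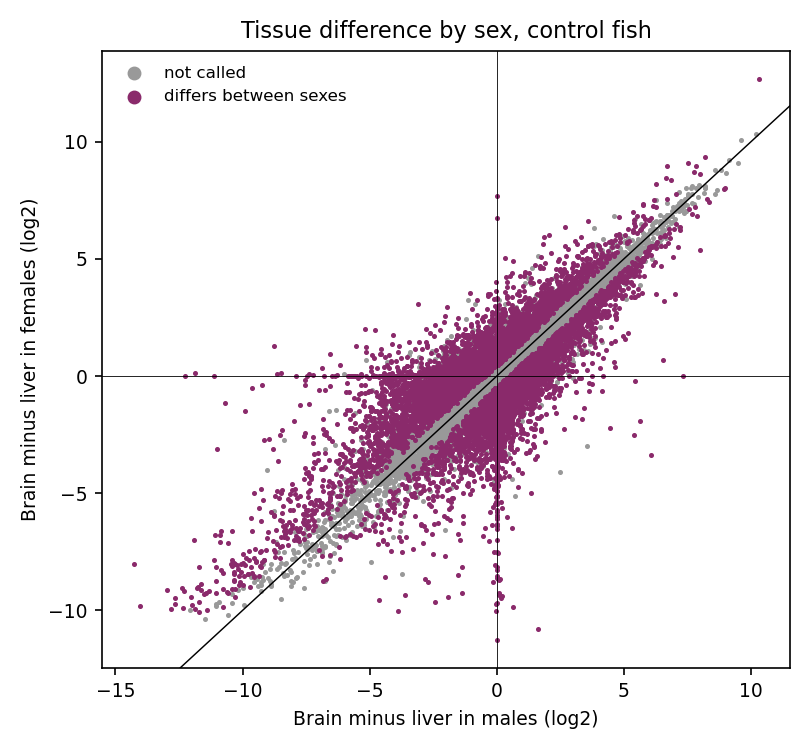
Brain-minus-liver log2 difference of each of the 29964 transcripts in females (vertical axis) against males (horizontal axis), after the first rescaling, with the line of equal differences. Purple points are the 9784 transcripts whose tissue difference was called unequal between the sexes, and those farthest from the line differ most between the sexes.

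The transcripts of largest difference between the sexes were present in the livers of a single sex. ENSDART00000132363.2 was listed at 0 in the 3 female brains and stood at 2.00 and 3.64 TPM in the male brains, against a listed 0 in both female livers and 4675 and 4973 TPM in the male livers (limma adjusted p of the difference between the sexes = 1.17e-06). ENSDART00000160930.1 stood at 0, 0.60 and 0 TPM in female brains and 1.80 and 0.99 TPM in male brains, against a listed 0 in both female livers and 2565 and 2490 TPM in the male livers (limma adjusted p = 1.17e-06). Both were thus male liver transcripts in the controls. Outside the controls, the first reached at most 0.75 TPM in any alcohol-exposed or withdrawal liver and the second at most 1.48 TPM, males included.

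In the other direction, ENSDART00000113682.3 stood at 180, 147 and 117 TPM in female brains and 0 and 23.0 TPM in male brains, against 22213 and 130984 TPM in female livers and 0.01 and 0.23 TPM in male livers (limma adjusted p of the difference between the sexes = 0.00216). It took 13.1% of the TPM of control female liver replicate 2, and the 2 female livers differed widely. ENSDART00000078328.5 was listed at 0 in 2 of the 3 female brains, with 2.87 TPM in the third, and at 0 in both male brains, against 3748 and 573 TPM in female livers and a listed 0 in both male livers (limma adjusted p = 0.000279). Both kept this pattern in the other conditions. The first stood at 5703 to 17605 TPM in alcohol-exposed and withdrawal female livers and at 1.28 TPM or less in the males, and the second at 2241 to 2992 TPM in those females and at 0.08 TPM or less in the males.

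Sex differences recurred from one tissue to the other. Between females and males limma called 5064 transcripts higher (16.9%) and 3912 lower (13.1%) in the brain, and 6853 higher (22.9%) and 6929 lower (23.1%) in the liver. Both tissues gave the same direction for 4229 transcripts, which is 47.1% of the brain list and 30.7% of the liver list, and opposite directions for 518. Across transcripts the female-minus-male differences of brain and liver, which share no library, had a Pearson r of 0.512 (n = 29964). Libraries of the 2 tissues resembled each other more within a sex: the correlation of log2 values across transcripts was 0.422 to 0.489 over the 10 brain and liver pairs of the same sex, and 0.353 to 0.404 over the 10 pairs of different sex. On TPM as deposited these ranges were 0.406 to 0.468 and 0.336 to 0.390. Females and males were kept in separate tanks, and the labels give no batch, so sex, tank and preparation cannot be told apart. On TPM as deposited the sex calls were 9734 higher and 2115 lower in the brain and 5312 higher and 3937 lower in the liver. The brain calls also rested on few libraries, with 2098 higher and 1298 lower without control male brain replicate 2.

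Transcripts that dominate the liver were also read at low levels in the brain, where their summed levels differed between control females and males. The direction did not match that of the livers in every set or condition. A set of 13 transcripts was picked from the livers alone, with a liver mean of at least 1000 TPM and both female livers at least 10-fold above both male livers. Their summed level was 2362, 1690 and 2158 TPM in female brains and 350 and 366 TPM in male brains, against 146047 and 273055 TPM in female livers and 242 and 14.4 TPM in male livers. Every female brain was above every male brain for 12 of the 13. The median transcript stood in female brains at 0.741% of its female liver level (range 0.0443% to 23.7%). How many of all tested transcripts had every female brain above every male brain was not counted. On TPM as deposited, limma called 9734 of all 29964 tested transcripts higher in female than in male brains and 2115 lower.

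The 6 transcripts picked in the same way as higher in male livers went the other way by their sum. They summed to 82.8, 114 and 53.4 TPM in female brains and 224 and 191 TPM in male brains, against 1579 and 1098 TPM in female livers and 36121 and 29214 TPM in male livers. Every male brain was above every female brain for 3 of the 6, and every female brain above every male brain for 2, again without a count over all transcripts. A further 28 transcripts, with 1000 TPM or more in all 4 livers and a brain mean under 1/16 of the liver mean, summed to 3453, 2711 and 3006 TPM in female brains and 1524 and 1397 TPM in male brains, against 218373 and 140880 TPM in female livers and 314169 and 296847 TPM in male livers. These stood higher in female brains although they were lower in female livers. Their median was 0.705% of the liver level in females and 0.118% in males. The rule for these 28 asked for a low brain mean, so low percentages were fixed in advance. With 3 against 2 brains no exact permutation test can go below p = 0.1, so none is given, and the sets were chosen after the data had been seen. With a liver minimum of 100 TPM in place of 1000, the sets grew to 46, 39 and 152 transcripts. The mean sum in female brains was then 3.58 times that in male brains for the female liver set, against 5.78 times for the 13, and 0.685 times for the male liver set, against 0.401 times for the 6. What these brain levels come from was not tested.

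**Figure D5:**
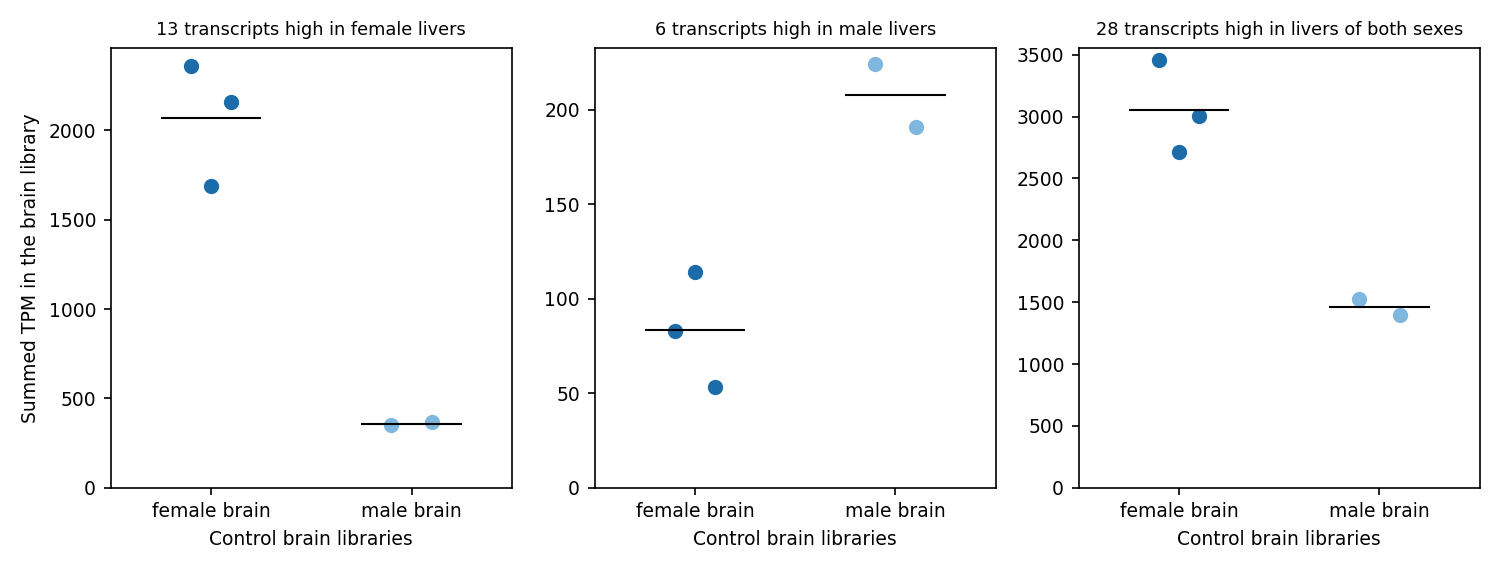
Summed TPM (vertical axis, as deposited) of 3 sets of abundant liver transcripts in the 5 control brain libraries, by sex (horizontal axis), 1 point per library with a line at the group mean. The set high in female livers lies at 1690 to 2362 TPM in female brains and 350 to 366 TPM in male brains, and the set high in male livers at 53.4 to 114 TPM and 191 to 224 TPM.

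The order of the sexes was not the same in withdrawal fish. The 13 transcripts of female livers summed to 835 and 871 TPM in alcohol-exposed female brains and 236 and 441 TPM in alcohol-exposed male brains, but to 646 and 606 TPM in withdrawal female brains and 852, 780 and 804 TPM in withdrawal male brains. The 28 transcripts of both sexes summed to 2705 and 2654 TPM in alcohol-exposed female brains and 1917 and 1918 TPM in the male brains, and to 1895 and 2160 TPM in withdrawal female brains and 3475, 3300 and 3418 TPM in the male brains. The 6 transcripts of male livers summed to 102 and 101 TPM in alcohol-exposed female brains and 72.4 and 112 TPM in the male brains, and to 158 and 90.4 TPM in withdrawal female brains and 81.1, 89.3 and 104 TPM in the male brains, so the sexes overlapped in both conditions. By the sums of the 13 and the 28, female brains were thus the higher ones in controls and under alcohol, and male brains after withdrawal. The sum of the 13 transcripts was higher in female than in male livers in all 3 conditions. A sum need not speak for each member, and how many members followed it was not counted outside the controls. Of the 13, only 3 were above 0 TPM in control male brain replicate 1. After withdrawal, 12 were above 0 TPM in each female brain, and 11, 10 and 10 in the male brains.

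Brain transcripts were read in the liver in turn. The 16 transcripts with 1000 TPM or more in all 5 brains and a liver mean under 1/16 of the brain mean summed to 71755, 61740 and 66597 TPM in female brains and 50802 and 52048 TPM in male brains, against 419 and 364 TPM in female livers and 670 and 1089 TPM in male livers. Their median level in the liver, held low by the rule, was 0.413% of the brain level in females and 0.475% in males. By their sums, control male livers were above control female livers, while the median ratios of the sexes were close. In the other conditions that order was not kept: the sums were 448 and 462 TPM in alcohol-exposed female livers and 423 and 503 TPM in the male livers, which overlap, and 405 and 415 TPM in withdrawal female livers and 198 and 243 TPM in the male livers.

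The tissue difference of the controls recurred in fish of the other conditions, whose libraries are separate. In alcohol-exposed fish limma called 13197 of the same 29964 transcripts higher in the brain (44%) and 8395 lower (28%), and in withdrawal fish 14005 higher (46.7%) and 7298 lower (24.4%). The spread between replicates of these conditions was not checked. Their numbers of calls can therefore not be set directly against those of the controls. Of the 12781 transcripts higher in control brains, 10369 were also called higher under alcohol (81.1% of the control list and 78.6% of the alcohol list), and 595 were called lower. Of the 7030 lower in control brains, 5356 were also lower under alcohol (76.2% and 63.8%), and 123 were higher. After withdrawal 10772 of the higher transcripts (84.3% of the control list and 76.9% of the withdrawal list) and 4865 of the lower ones (69.2% and 66.7%) had the same call, while 204 of the higher transcripts were called lower and 379 of the lower ones higher. The log2 differences of controls correlated across transcripts with those under alcohol (Pearson r = 0.868) and after withdrawal (r = 0.888, n = 29964 transcripts each).

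The 4 transcripts named for the tissue difference kept their direction. ENSDART00000171617.1 stood at 15232 to 25932 TPM in alcohol-exposed brains and 20360 to 41450 TPM in withdrawal brains, and at 7.35 TPM or less in all livers of these conditions. ENSDART00000056095.5 stood at 46.9 to 205 TPM in alcohol-exposed brains and 2.13 to 240 TPM in withdrawal brains, against 27329 to 46864 TPM in alcohol-exposed livers and 23498 to 54888 TPM in withdrawal livers. Its lowest brain levels, 6.25 and 2.13 TPM, were those of the withdrawal females, whereas among controls the females were the higher sex. The first transcript had the same turn, at 20360 and 28155 TPM in withdrawal female brains and 41450, 38343 and 40596 TPM in withdrawal male brains.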

How the data were processed

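Tables of TPM per Ensembl transcript were used as the authors deposited them, 1 for the brain and 1 for the liver, with values to 2 decimals. Per the labels' protocols, libraries were made with a non-stranded kit. Per the series' design text and the submitters' processing notes, reads were aligned with STAR 2.5.2 to danRer10 and quantified with RSEM 1.3.1. The annotation release is not given in the sources used here. TPM carries no read number, so depth is unknown and no interval that needs it is given. TPM was scaled within each library, not within each table, but every brain library lies in one table and every liver library in the other.

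Both tables were joined on the transcript identifier. Each library was divided by its median ratio to the across-library geometric mean, and values were taken as log2(TPM + 1), which understates differences of low transcripts. Limma 3.58.1 in R 4.3.3, with a variance trend, was fitted to the 9 control libraries with sex and tissue as terms, or with means of the 4 groups for comparisons by sex. A call needed an adjusted p (Benjamini-Hochberg, over all transcripts tested) below 0.05. Single values per library were compared with exact two-sided permutation tests (scipy 1.17.1). The limma fit with sex and tissue as terms was tested on simulated log2 values. These were drawn after the rescaling and without a sex difference, so neither the scaling between tissues nor the comparisons by sex were tested. Levels of transcripts and shares are on TPM as deposited, and log2 differences are after rescaling unless stated otherwise. Named transcripts are the 2 called transcripts of largest positive and of largest negative difference with a mean of at least 5 TPM and no other transcript with identical values (90 of the tested had one); for the tissue comparison, brain and liver also did not overlap. Members and rules were chosen with earlier results of these data known. Counts of calls standing under all 4 scalings, and the sets of liver and brain transcripts read in the other tissue, were added after seeing the data.

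No pair of control replicate libraries agreed far more closely than the others (root mean square difference 0.36 to 0.65 log2 units over the 6 pairs), so none was averaged. Replicates of alcohol-exposed and withdrawal fish were not checked in this way. Brain and liver libraries of the same sex and replicate number had deviations from their group means that correlated at 0.03 to 0.09, and the labels do not say that numbers mark shared fish, so the numbers were not taken as pairs.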

Additional observations from a re-analysis of the deposited data

Results flagged for a closer look

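The tissue difference was tested as unequal between the sexes for 9784 transcripts, which is the test of the difference itself and not a comparison of 2 lists. Among them ENSDART00000132363.2 (limma adjusted p = 1.17e-06) and ENSDART00000160930.1 (limma adjusted p = 1.17e-06) were high in male livers, and ENSDART00000113682.3 (limma adjusted p = 0.00216) and ENSDART00000078328.5 (limma adjusted p = 0.000279) in female livers.

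Of 26 sets of values checked for a single library far from the others of its tissue, 3 had one by Dixon's ratio of the gap to the range. Chance flags about 1 in 20 sets when all values come from a single normal group, which does not hold for sets of both sexes. ENSDART00000078328.5 was at 2.87 TPM in control female brain replicate 3 and listed at 0 in the other 4 brains, so the gap was the whole range (ratio 1.00). In the livers the same transcript was at 3748 TPM in control female liver replicate 1 (gap over range 0.847). ENSDART00000113682.3 was at 130984 TPM in control female liver replicate 2 (gap over range 0.830).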

How the results depend on the processing

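The scaling between libraries moved the split of calls more than any other choice. On TPM as deposited, 22586 transcripts were higher and 2635 lower in the brain, with 22638 and 2678 in females and 20317 and 2868 in males. On that scale the brain-minus-liver difference, taken with its sign, was lower in females than in males for 1993 transcripts. The female-minus-male brain calls were 9734 higher and 2115 lower, and 3937 liver transcripts were lower in females. Rescaling over transcripts of 5 TPM or more gave 4675 lower in the brain, and 4982 in females. Testing only transcripts of 5 TPM or more in 2 libraries, which leaves fewer to call, gave 4498 lower, with 4925 in females and 4509 in males. The cause of the shift with scale was not tested. With a liver minimum of 100 TPM, the female-minus-male difference of the summed brain TPM was 5558 for the female liver set, -615 for the male liver set and 2217 for the set of both sexes, against 1712, -124 and 1597 at 1000 TPM. A bound of 0.1 TPM gave 4683 transcripts for those listed at 0 in the liver. The 8 named transcripts kept direction and call in all 164 recalculations. They had been picked as called transcripts of largest difference in the same control libraries, so this was partly fixed by their choice.

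Leaving out 1 library at a time gave 11899 to 12406 transcripts higher and 6127 to 6950 lower in the brain. The ranges were 11858 to 12911 and 7167 to 7910 in females, 10715 to 12455 and 5988 to 7412 in males, and 3809 to 5051 and 3338 to 4658 for the difference between the sexes. Sex calls ranged from 2098 to 5502 higher and 1298 to 4479 lower in the brain, and 5787 to 6978 and 6009 to 6876 in the liver. The brain-minus-liver difference in the share of the 10 most abundant transcripts ranged from -6.89 to -4.18 points. Without control male brain replicate 1 the lower brain sex calls were 2049, and without control female brain replicates 1 and 3 they were 2468 and 2368.

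With sex and replicate number as a block, 10936 transcripts were higher and 5285 lower in the brain, and 3007 and 2649 differed between the sexes. Libraries of unknown depth limit what a listed 0 can mean.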
